A study of Mus musculus with 2 samples.

Results

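The 30 genes described here encode chaperones and proteins of the unfolded protein response, and they were taken by symbol from the 31057 features of a single-cell RNA sequencing study of the mouse adrenal cortex. All 30 symbols were found in both feature lists, and all 30 identifiers matched the gene annotation. By the compartment of their proteins they fell into 11 cytosolic chaperones and cofactors, 3 mitochondrial chaperones, 11 chaperones and folding factors of the endoplasmic reticulum (ER), and 5 regulators and stress markers of the unfolded protein response (UPR). The mice were WT males aged 15 weeks that carried SF1-Cre and the Rosa mTmG reporter. SF1-Cre is active in the steroid-producing lineage, and in its presence the reporter replaces a red membrane protein by a green one. The study used 26 adrenals, and the labels do not say how they or the animals were divided between the libraries. Live cells that took up a DNA dye were sorted, and the labels name no gate on the reporter. The series therefore holds 1 group of samples with 2 libraries, called library 1 and library 2. The p-values measure only how far differences between cell groups vary between these libraries, after any shift shared by all cell groups of a library is removed. For each gene this spread is pooled over all cortical cell groups and drawn towards that of other genes. It is therefore not the spread of the 2 compared groups alone.

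The adrenal cortex makes steroids in concentric zones. Cyp11b2, the aldosterone synthase gene, marks the outer zona glomerulosa, and Cyp11b1, which serves the last step to corticosterone, marks the zona fasciculata. Chaperones bind unfolded or newly imported proteins and let them fold, and each compartment has a set of its own. In mitochondria, where both CYP11B enzymes act, an import motor pulls proteins in and a barrel-shaped chaperonin folds them. In the ER, where other steroidogenic enzymes are inserted, folding factors are induced through the UPR, which senses unfolded protein and signals through the transcription factors XBP1, ATF6 and ATF4.

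In library 1 there were 5040 barcodes with 92905273 UMIs in total (unique molecular identifiers, each counting 1 captured RNA molecule), and in library 2 there were 2288 barcodes with 28023733 UMIs. The filters kept 4689 cells of library 1 (median 18198 UMIs) and 1970 cells of library 2 (median 14817 UMIs), with 4 barcodes common to both. Cortical cells had to hold at most 1 UMI of 5 leukocyte genes (Ptprc, Laptm5, Tyrobp, Coro1a and Fcer1g) and at least 500 CPM (the UMIs of a gene divided by all UMIs of the cell, in the usual CPM scaling) of the cholesterol transporter gene Star, and they numbered 6342 of 6659. They were divided by the CPM of 3 genes that are no chaperones. Aldh1a1-high cells (at least 500 CPM of Aldh1a1, a retinaldehyde dehydrogenase gene) numbered 35 in library 1 and 29 in library 2. Co-expressing cells, with at least 200 CPM of Cyp11b2 and at least 300 CPM of Cyp11b1, numbered 37 and 21. Cyp11b1-high cells (at least 1000 CPM, with Cyp11b2 under 200 CPM) numbered 486 and 334, and intermediate cells, with 300 to under 1000 CPM of Cyp11b1, numbered 495 and 178. Cells low in both genes numbered 2960 and 1014, and Cyp11b2-high cells (at least 200 CPM, with Cyp11b1 under 300 CPM) numbered 489 and 264. Of all cortical cells, 17.0% lay within 25% of a limit that divides the groups. The level of a gene in a group is the sum of its UMIs over the cells of the group in 1 library, as CPM of that sum, and is given below for library 1 and then library 2. Groups are said to overlap where the ranges of their values over the libraries do. With so few values per group, a lack of overlap can arise by chance. It is given as a description and not as a test, and its share among all genes is not given.

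Of the steroidogenic markers that were not used to choose cells, Cyp11a1, the side-chain cleavage enzyme gene, had 3166 to 5750 CPM in the 6 cortical groups, against 37.9 and 23.5 CPM in 81 and 70 leukocytes of the same libraries. The 9 leukocyte markers, of which 5 were used to choose the cells, summed to at most 11.8 CPM in any cortical group, so that low sum follows in part from the choice. Zona glomerulosa markers, which include Cyp11b2 itself, summed to 2771 and 2580 CPM in Cyp11b1-high cells, against 5760 and 6807 CPM in Cyp11b2-high cells. Cells low in both had 4994 and 5693 CPM of these markers, nearer to Cyp11b2-high cells, and intermediate cells had 4378 and 4392 CPM. For zona fasciculata markers, cells low in both had 1526 and 1238 CPM, against 2147 and 1995 CPM in Cyp11b2-high cells. Of 5 X-zone or inner cortex markers, which include Aldh1a1 itself, Pik3c2g and Akr1c18 were at 0 in Aldh1a1-high cells. In Cyp11b1-high cells 2 of the 5 were at 0 too. The 5 summed to 3474 and 5325 CPM in Aldh1a1-high cells, against 44.2 and 69.2 CPM in Cyp11b1-high cells. Zona fasciculata markers, which include Cyp11b1, summed to 7829 and 11408 CPM in Aldh1a1-high cells, against 4034 and 5678 CPM in Cyp11b1-high cells. Aldh1a1-high cells are therefore called by their gene and not by a zone. Haemoglobin genes summed to 1329 and 1226 CPM in Cyp11b1-high cells and to 18.3 and 0 CPM in Cyp11b2-high cells, and 12 and 4 of the Cyp11b1-high cells held more than 1 haemoglobin UMI.

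The mitochondrial and ER chaperones lay on opposite sides when Cyp11b1-high cells were set against Cyp11b2-high cells. In Cyp11b1-high over Cyp11b2-high cells 15 of the 30 members were called (edgeR quasi-likelihood test, adjusted p under 0.05), of which 10 were higher and 5 lower. Of all 11786 genes tested, 33.9% were called, 15.8% as higher and 18.1% as lower. In Aldh1a1-high over Cyp11b1-high cells 1 member was called higher and 7 lower, against 7.75% and 6.73% of all genes (14.5% together). In cells low in both over Cyp11b2-high cells 0 members were called higher and 6 lower, against 5.76% and 7.13% of all genes (12.9% together). At an unadjusted p under 0.05 edgeR had 2 members higher there, and DESeq2 called 0. Of 2 comparisons added after the data were seen, co-expressing over Cyp11b1-high cells had 3 members higher and 6 lower, against 4.17% and 3.59% of all genes (7.75% together). Cyp11b1-high cells over cells low in both had 12 higher and 1 lower, against 12.8% and 14.6% of all genes (27.4% together). Without cells holding over 1 haemoglobin UMI, 15 members were again called in Cyp11b1-high over Cyp11b2-high cells. All these calls rest on a model with a library term, since without it 0 members passed the adjusted threshold in any of the 5 comparisons, and between 1 and 6 had an unadjusted p under 0.05.

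**Figure D1:**
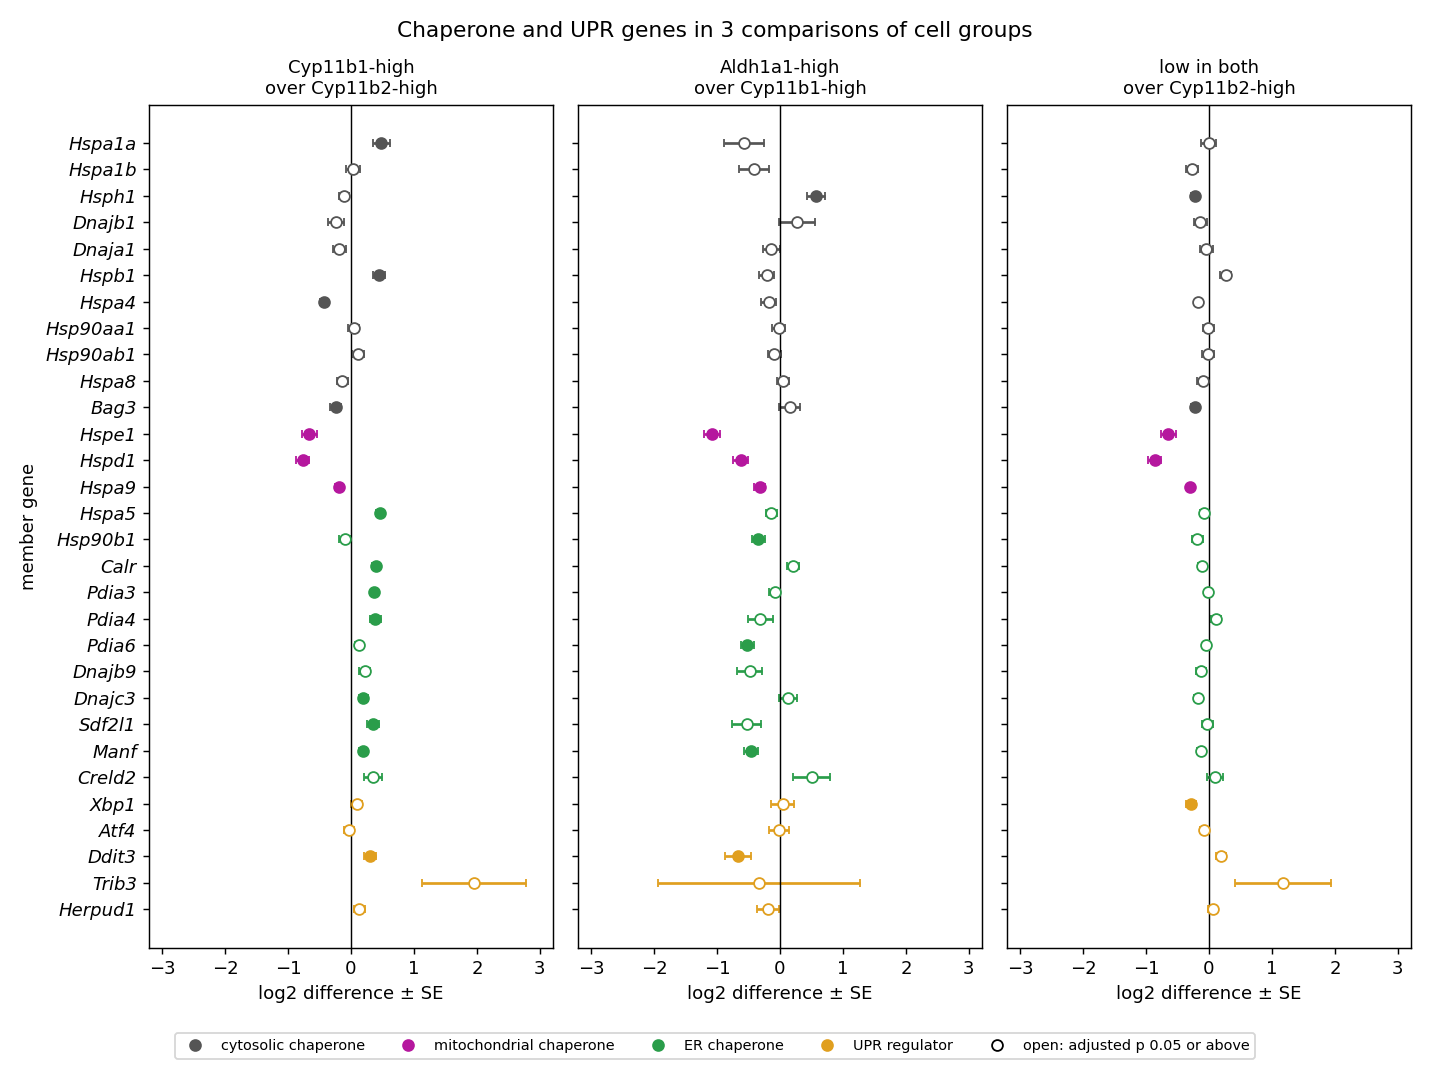
Log2 difference (x axes) of each of the 30 members (y axis) with its standard error in 3 comparisons of cell groups, coloured by compartment. Filled points have an adjusted p under 0.05, and all 3 mitochondrial chaperones are filled and left of 0 in each panel.

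The mitochondrial chaperones were lower in Cyp11b1-high cells than in Cyp11b2-high cells. Hspd1 encodes the subunit of the mitochondrial chaperonin barrel, and its level was 1258 and 1501 CPM in Cyp11b1-high cells, against 2006 and 2408 CPM in Cyp11b2-high cells. The groups did not overlap, and the log2 difference was -0.77 ± 0.11 (SE; adjusted p = 6.49e-06). Hspe1 encodes the co-chaperonin that closes the barrel, and its level was 2324 and 1927 CPM in Cyp11b1-high cells, against 3512 and 2812 CPM in Cyp11b2-high cells. These values did not overlap either, with a log2 difference of -0.66 ± 0.12 (adjusted p = 0.000112). Hspa9 encodes the Hsp70-type motor of mitochondrial import, and it had 408 and 564 CPM in Cyp11b1-high cells, against 451 and 591 CPM in Cyp11b2-high cells. Its values overlapped between the groups, and within each library the difference was small (-0.25 and -0.14, fitted -0.20 ± 0.05, adjusted p = 0.00557). The call of Hspa9 was lost under 5 of 10 alternative settings.

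Cells low in both enzymes also stood below Cyp11b2-high cells for all 3 mitochondrial chaperones. Hspd1 had 1165 and 1341 CPM in cells low in both, against 2006 and 2408 CPM in Cyp11b2-high cells (log2 difference -0.86 ± 0.11, adjusted p = 6.38e-06). Hspe1 had 2429.8 and 1773 CPM in cells low in both, against 3512 and 2812 CPM in Cyp11b2-high cells (-0.65 ± 0.12, adjusted p = 0.000456). The values of neither gene overlapped between the groups. Hspa9 had 369.9 and 506 CPM in cells low in both, against 451 and 591 CPM in Cyp11b2-high cells, and was lower in each library (-0.30 ± 0.05, adjusted p = 0.000182). Ranked by size among the 714 genes called lower here with at least 20 CPM in either group, Hspd1 was number 53 and Hspe1 number 112. Among the 1722 such genes in Cyp11b1-high over Cyp11b2-high cells they were numbers 370 and 460, and among the 696 in Aldh1a1-high over Cyp11b1-high cells numbers 546 and 280. In Cyp11b1-high cells over cells low in both, 0 of the 3 passed edgeR's test, against 27.4% of all genes. Their log2 differences there were 0.09 for Hspd1, -0.01 for Hspe1 and 0.11 for Hspa9, of which 1 had an unadjusted p under 0.05, and DESeq2 called 0.

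In co-expressing cells, which hold both enzymes, the chaperonin genes were above their level in Cyp11b1-high cells. Hspd1 had 1874 and 2822 CPM in co-expressing cells, against 1258 and 1501 CPM in Cyp11b1-high cells (log2 difference 0.74 ± 0.11, adjusted p = 0.000143). Hspe1 had 3312 and 3237 CPM in co-expressing cells, against 2324 and 1927 CPM in Cyp11b1-high cells (0.62 ± 0.12, adjusted p = 0.00157). Neither gene's values overlapped. Hspa9 did not pass the test, at 464 and 640.1 CPM in co-expressing cells, against 408 and 564 CPM in Cyp11b1-high cells. The co-expressing group rests on 37 and 21 cells with medians of 20763 and 15702 UMIs, against 16070 and 13717 UMIs in Cyp11b1-high cells. Of these cells, 17 of 37 and 12 of 21 lay within 25% of a limit that divides the groups. Whether some of them are doublets that the filter missed was not tested.

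Aldh1a1-high cells had the lowest level of each of the 3 genes among the cortical groups in both libraries. Hspe1 had 1175 and 795 CPM in Aldh1a1-high cells, against 2324 and 1927 CPM in Cyp11b1-high cells (log2 difference -1.08 ± 0.13, adjusted p = 2.86e-06). Hspd1 had 832 and 896 CPM in Aldh1a1-high cells, against 1258 and 1501 CPM in Cyp11b1-high cells (-0.62 ± 0.12, adjusted p = 0.00084). Hspa9 had 343 and 401 CPM in Aldh1a1-high cells, against 408 and 564 CPM in Cyp11b1-high cells (-0.32 ± 0.09, adjusted p = 0.0148). None of the 3 genes overlapped between these groups, which can arise by chance with so few values. The call of Hspa9 was lost under 4 of 10 alternative settings. In leukocytes, which were not tested, the 3 transcripts summed to 520.1 and 563 CPM, against 2092 to 6699 CPM in the cortical groups.

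The share of UMIs from genes of the mitochondrial genome also differed between the groups. Its median was 5.46% and 4.74% in Cyp11b1-high cells, against 7.36% and 7.08% in Cyp11b2-high cells, and it was 5.80% and 5.15% in cells low in both. In Aldh1a1-high cells it was 4.52% and 6.30%, and in co-expressing cells 6.87% and 4.98%. Its part in the levels of Hspd1 and Hspe1 was not tested.

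**Figure D2:**
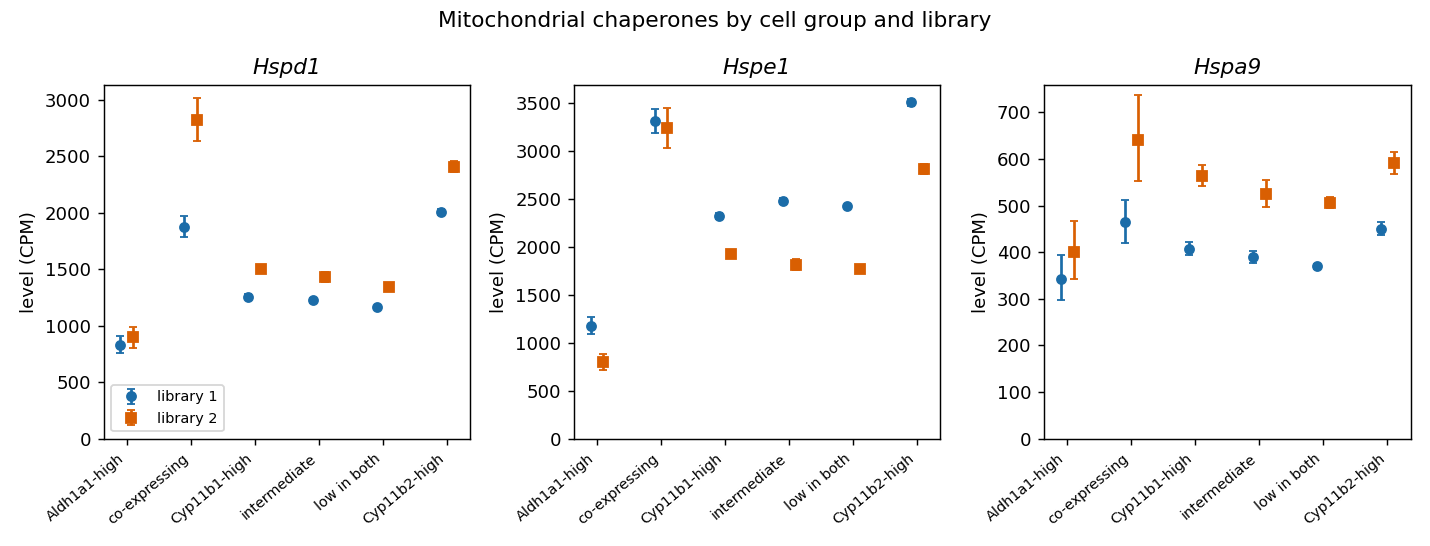
Levels of Hspd1, Hspe1 and Hspa9 (CPM, y axes from 0) in the 6 cortical cell groups (x axes), with 1 point per library and bars for exact Poisson 95% intervals, which cover counting error only. Hspd1 stands at 1874 to 2822 CPM in co-expressing and Cyp11b2-high cells and at no more than 1501 CPM in the other groups.

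Among cells with less than 300 CPM of Cyp11b1, the chaperonin genes climbed with Cyp11b2 itself. Over cells with no Cyp11b2 UMI, under 100, 100 to under 200, 200 to under 500, and at least 500 CPM, Hspd1 had 998, 1274, 1511, 1867 and 2768 CPM in library 1. In library 2 it had 1193, 1579.7, 1709, 2249 and 2822 CPM. Hspe1 had 2142, 2614, 3031, 3397 and 4139 CPM in library 1 and 1603, 2072, 2161, 2672 and 3179.7 CPM in library 2. The highest class was 2.77-fold and 2.37-fold above the lowest for Hspd1 and 1.93-fold and 1.98-fold above it for Hspe1. Of the 30 members, 4 were higher at every step in both libraries, namely the 3 mitochondrial chaperones and Hsp90b1, the ER member of the Hsp90 family. For Hspa9 the highest class was 1.51-fold and 1.34-fold above the lowest, and for Hsp90b1 1.21-fold and 1.24-fold, with 1 step of Hsp90b1 in library 2 at 991 CPM on both sides.

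These values are descriptions with no test, and cells with more Cyp11b2 also held more UMIs, with medians of 22146 and 17779.5 in the highest class and 16980 and 14167 in the lowest. Cells with at least 5000 UMIs were therefore thinned to 5000 UMIs, grouped anew by the same limits and classed by 0, 1, 2 or at least 3 Cyp11b2 UMIs. Hspd1 then had 1100.0, 1499, 1812 and 2397 CPM in library 1 and 1292, 1897, 2205 and 2265 CPM in library 2. Hspe1 and Hspa9 also had a higher level at every step of the thinned classes in both libraries, and Hsp90b1 did so in library 2 and was level at the last step in library 1 (853 and 852 CPM). Hspb1, a small heat shock protein gene, ran the opposite way before thinning, with 530.3 CPM in the lowest class and 392 CPM in the highest in library 1, and 506 and 312 CPM in library 2. After thinning, its lowest and highest classes had 523 and 489 CPM in library 1 and 511 and 303 CPM in library 2.

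The chaperonin genes showed no such climb with Cyp11b1 below its highest class. In cells with under 200 CPM of Cyp11b2, divided at 100, 300, 1000, 2000 and 3000 CPM of Cyp11b1, Hspd1 stayed between 1149 and 1227 CPM in library 1 and between 1301 and 1431 CPM in library 2. At 3000 CPM of Cyp11b1 or more it had 1491 and 1672 CPM. Hspe1 ranged from 2220.1 to 2484 CPM in library 1 and from 1635 to 2040.0 CPM in library 2 with no steady order. Over the same classes Vsnl1, a calcium sensor gene and zona glomerulosa marker, was at 22.3 and 46.9 CPM in the highest class, against 524 and 639.9 CPM in cells with no Cyp11b1 UMI.

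**Figure D3:**
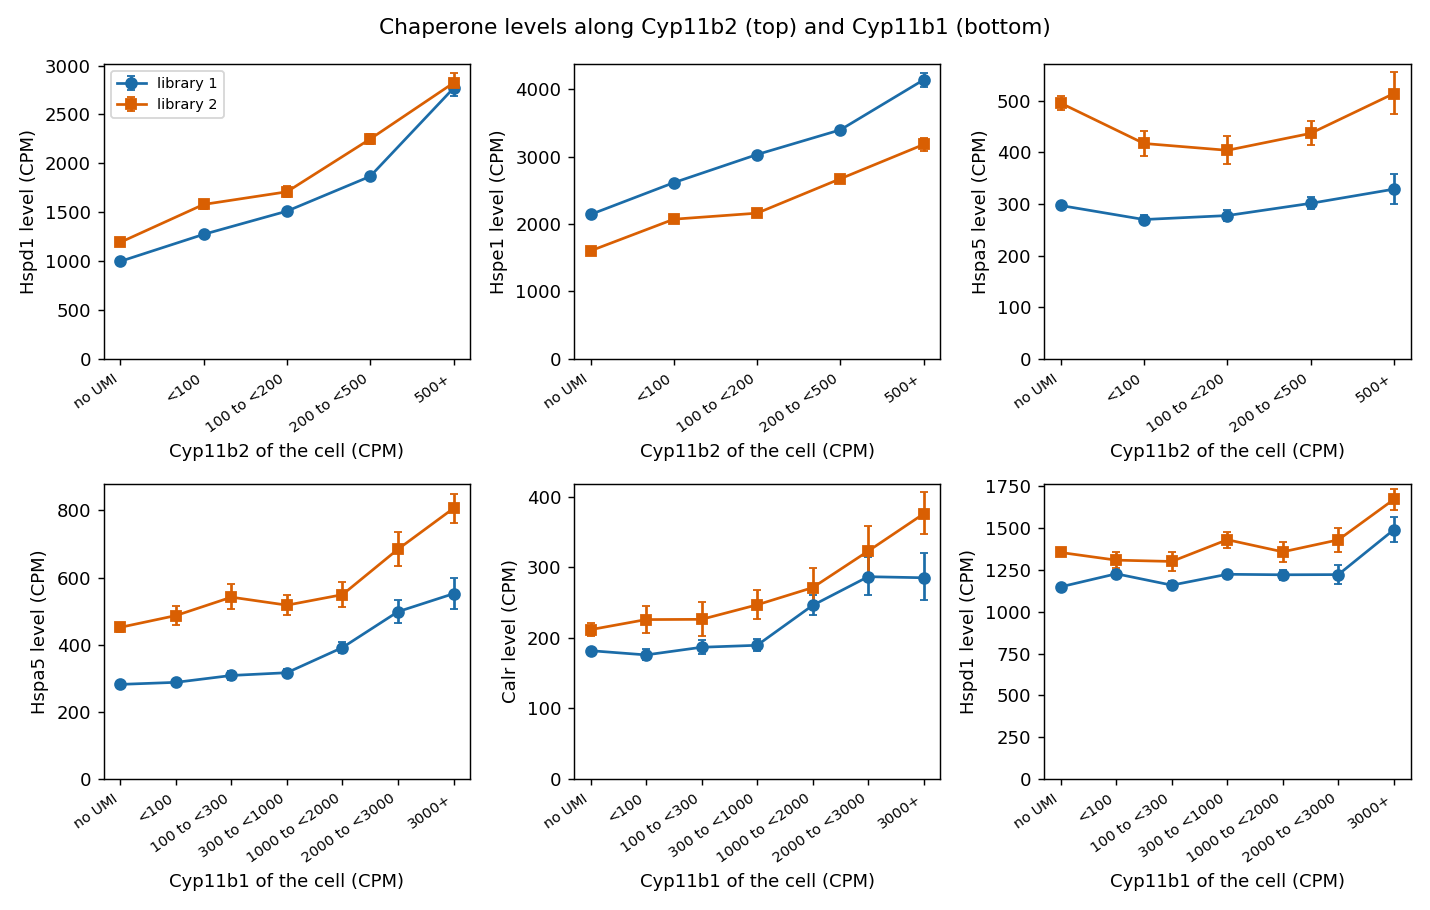
Levels of 4 members (CPM, y axes from 0) in cells classed by their own Cyp11b2 level (top row, cells with Cyp11b1 under 300 CPM) or Cyp11b1 level (bottom row, cells with Cyp11b2 under 200 CPM), with 1 line per library and exact Poisson 95% intervals. Hspd1 and Hspe1 climb with Cyp11b2, and Hspa5 and Calr are higher above 1000 CPM of Cyp11b1 than below it.

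Hspd1 and Hspe1 also varied together from cell to cell. Across cells that were low in both enzymes by their counts after thinning to 5000 UMIs, Pearson's r between them was 0.419 in library 1 (2455 cells) and 0.434 in library 2 (792 cells). Of the 435 pairs among the 30 members this was the largest r in each library, the next being 0.165 and 0.222, and the median pair had 0.0156 and 0.0179. These correlations are descriptions over cells that share a library, with depth made equal. Counting error lowers r for members with few UMIs per thinned cell, and Hspd1 and Hspe1 are among the members with most UMIs. The rank of this pair therefore depends in part on level. Such cells may still differ in Cyp11b2, with which both genes climbed, and its part in this r was not tested. The genes lie head to head on chromosome 1, Hspd1 at chr1:55077835-55088243 on the minus strand and Hspe1 at chr1:55088132-55091307 on the plus strand (mm10, GENCODE vM21). Their annotated models share 112 bases at the 5′ ends, while the kit captures transcripts at the 3′ ends.

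The stretch upstream of the Hspe1 start is shown here as it holds a heat shock element beside this overlap. It is the RefSeq (GRCm38.p6) promoter window of Hspe1, chr1:55087898-55088197 on the plus strand, from 250 bases before to 50 bases after the start. Capitals mark overlapping heat shock elements, the kind of site bound by heat shock factors.
Hspe1: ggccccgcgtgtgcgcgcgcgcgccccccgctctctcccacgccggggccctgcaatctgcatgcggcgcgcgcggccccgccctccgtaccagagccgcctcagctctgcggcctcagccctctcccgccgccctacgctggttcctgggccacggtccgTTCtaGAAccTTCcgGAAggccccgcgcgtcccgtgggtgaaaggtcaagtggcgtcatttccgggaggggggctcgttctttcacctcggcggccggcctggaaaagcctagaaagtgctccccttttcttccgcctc
Hspd1 has 2 such windows on the other strand. The window at chr1:55087883-55088182 shares 285 of these bases and holds the element, and the window at chr1:55088194-55088493, next to the start of the gene model given above, shares 4 bases and does not hold it. The motif searched, on both strands, was that of a heat shock element, GAA, TTC and GAA with 2 bases between neighbours, and the capitals hold it once on each strand in overlap. It occurred in 0.603% of 32851 promoter windows, or 0.662% of 27025 genes. Among the 25 members that have a window, it occurred in Hspe1, Hspd1 and Hsph1, and for Hspe1 and Hspd1 this is the same stretch. The members were listed as chaperone and UPR genes, so a heat shock element among them is not independent of that choice.

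ER chaperones were higher in Cyp11b1-high cells than in Cyp11b2-high cells. Of the 11 ER members 7 were higher and 0 lower by edgeR, against 15.8% and 18.1% of all genes. Their median log2 difference was 0.35, against -0.0050 over all genes tested. DESeq2 called 5 higher and 0 lower, and at an unadjusted p under 0.05 edgeR had 10 higher and 0 lower. Hspa5 encodes BiP, the Hsp70-type chaperone of the ER lumen, which also holds the UPR sensors inactive. It had 436 and 685 CPM in Cyp11b1-high cells, against 305 and 458 CPM in Cyp11b2-high cells. Library 2 was higher than library 1 in both groups, so the values overlapped, while within each library the difference was 0.41 and 0.51 (fitted 0.46 ± 0.05, adjusted p = 9.02e-07). Calr encodes calreticulin, a lectin chaperone for glycoproteins, and had 259.8 and 326 CPM in Cyp11b1-high cells, against 189.9 and 225 CPM in Cyp11b2-high cells (0.40 ± 0.06, adjusted p = 1.2e-05). Pdia3 encodes a disulfide isomerase that works with calreticulin, and had 395 and 517 CPM in Cyp11b1-high cells, against 288 and 373 CPM in Cyp11b2-high cells (0.37 ± 0.05, adjusted p = 1.36e-05). Neither Calr nor Pdia3 overlapped between the groups.

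A further 4 ER members were called on the same side. Pdia4, a further disulfide isomerase gene, had 62.4 and 72.0 CPM in Cyp11b1-high cells, against 42.2 and 56.1 CPM in Cyp11b2-high cells (0.39 ± 0.09, adjusted p = 0.00211). Sdf2l1, whose protein assists BiP, had 50.6 and 52.6 CPM in Cyp11b1-high cells, against 37.1 and 39.2 CPM in Cyp11b2-high cells (0.35 ± 0.09, adjusted p = 0.00697). Manf, which encodes a secreted ER stress factor, had 303 and 295 CPM in Cyp11b1-high cells, against 258 and 234 CPM in Cyp11b2-high cells (0.19 ± 0.06, adjusted p = 0.0231). None of these genes overlapped between the groups. Dnajc3, a BiP cochaperone gene, had 114 and 132 CPM in Cyp11b1-high cells, against 87.9 and 118 CPM in Cyp11b2-high cells, which overlapped (0.20 ± 0.07, adjusted p = 0.0467). The call of Dnajc3 was lost under 5 of 10 alternative settings, and that of Manf under 3. The other ER members did not pass the test, with log2 differences of 0.35 for Creld2, 0.22 for Dnajb9, 0.13 for Pdia6 and -0.10 for Hsp90b1.

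Over cells low in both enzymes, Cyp11b1-high cells had 9 of 11 ER members higher and 0 lower, as they did by DESeq2 and at an unadjusted p under 0.05. Of all genes, 12.8% were called higher and 14.6% lower. Hspa5 had 436 and 685 CPM in Cyp11b1-high cells, against 286 and 467 CPM in cells low in both (0.54 ± 0.05, adjusted p = 6.08e-08). Calr had 259.8 and 326 CPM in Cyp11b1-high cells, against 181 and 216 CPM in cells low in both (0.51 ± 0.05, adjusted p = 1.87e-07). Dnajb9, whose protein brings BiP to a UPR sensor, had 66.0 and 75.8 CPM in Cyp11b1-high cells, against 52.1 and 54.9 CPM in cells low in both (0.35 ± 0.08, adjusted p = 0.00159). Calr and Dnajb9 did not overlap between the groups, and Hspa5 did. Pdia6, a disulfide isomerase gene, was called as well (0.17 ± 0.05, adjusted p = 0.018), and Creld2 and Hsp90b1 were not (0.25 and 0.09). In cells low in both over Cyp11b2-high cells edgeR called 0 of 11 ER members, against 12.9% of all genes. Their median log2 difference was -0.08. At an unadjusted p under 0.05, 4 were lower there, and DESeq2 called 1 of them.

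Early response genes, which tissue dissociation can induce, also differed between these groups. Of the 12 listed, 5 were called higher and 1 lower in Cyp11b1-high over Cyp11b2-high cells, against 15.8% and 18.1% of all genes. Together they summed to 1311 and 1910.3 CPM in Cyp11b1-high cells, against 907.5 and 1287 CPM in Cyp11b2-high cells and 1057 and 1553 CPM in cells low in both. Jun was higher (log2 difference 1.18 ± 0.09, adjusted p = 7.33e-10, over Cyp11b2-high cells), and Nr4a1 was lower (-1.72 ± 0.26, adjusted p = 2.17e-05). Their part in the levels of the ER members was not tested.

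Along the Cyp11b1 classes Hspa5 had 282, 288, 308, 316, 391, 498 and 552 CPM in library 1. In library 2 it had 452, 487, 542, 518, 549, 684 and 806 CPM, from cells with no Cyp11b1 UMI to cells with at least 3000 CPM. The highest class was 1.96-fold and 1.79-fold above the lowest, and most of the increase lay above 1000 CPM of Cyp11b1. After thinning, with classes of 0, 1 to 4, 5 to 9, 10 to 14 and at least 15 Cyp11b1 UMIs, Hspa5 had 279, 337, 427, 453 and 526 CPM in library 1. In library 2 it then had 461, 460.1, 589.9, 680.0 and 814 CPM. Along the Cyp11b2 classes Hspa5 had its lowest values in the middle, with 297, 269.8, 278, 301 and 329 CPM in library 1 and 495, 417, 404, 437 and 514 CPM in library 2.

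**Figure D4:**
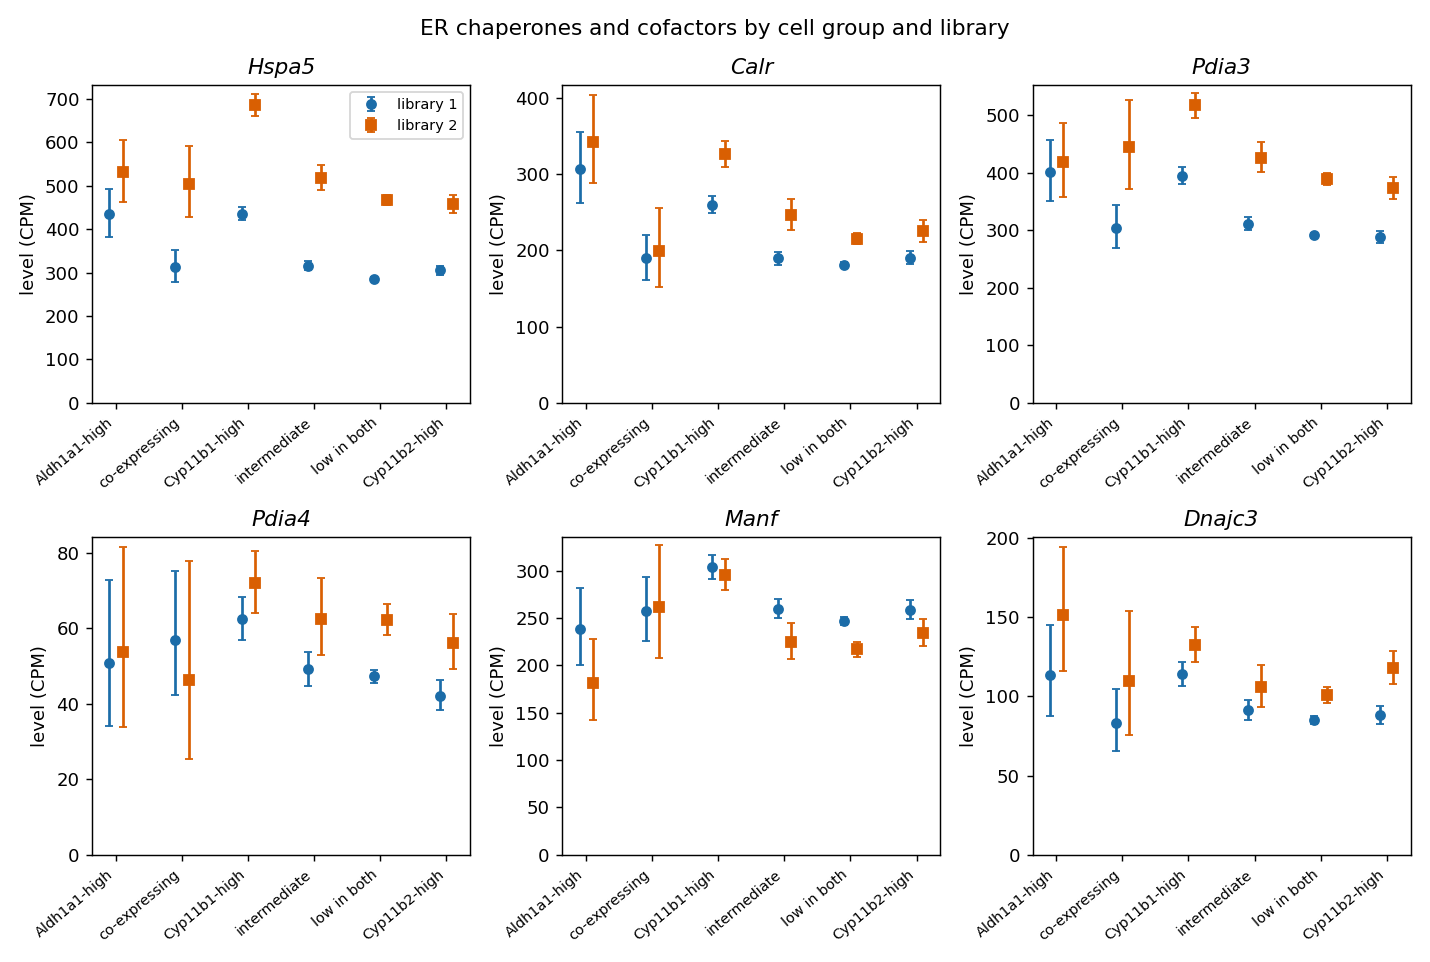
Levels of 6 ER chaperones and cofactors (CPM, y axes from 0) in the 6 cortical cell groups (x axes), with 1 point per library and exact Poisson 95% intervals. Calr stands at 259.8 and 326 CPM in Cyp11b1-high cells and at 189.9 and 225 CPM in Cyp11b2-high cells, and the intervals are widest in Aldh1a1-high and co-expressing cells, the groups of fewest cells.

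Co-expressing cells differed from Cyp11b1-high cells in 4 of 11 ER members, each of them lower, against 3.59% of all genes called lower. Hspa5 had 314 and 504 CPM in co-expressing cells, against 436 and 685 CPM in Cyp11b1-high cells (-0.47 ± 0.08, adjusted p = 0.000894). Calr had 189 and 199 CPM in co-expressing cells, against 259.8 and 326 CPM in Cyp11b1-high cells (-0.55 ± 0.10, adjusted p = 0.00125). Pdia3 (-0.32 ± 0.09, adjusted p = 0.0203) and Sdf2l1 (-0.70 ± 0.21, adjusted p = 0.0476) were lower too, and the call of Sdf2l1 was lost under 5 of 9 alternative settings. This comparison and that of Cyp11b1-high with Cyp11b2-high cells share the Cyp11b1-high sums, so they are not independent of each other.

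Aldh1a1-high cells had 3 of 11 ER members lower than Cyp11b1-high cells and 0 higher by edgeR, as by DESeq2. At an unadjusted p under 0.05, 1 was higher. Of all genes, 6.73% were called lower and 7.75% higher. Pdia6 had 238 and 191 CPM in Aldh1a1-high cells, against 302 and 346 CPM in Cyp11b1-high cells (-0.52 ± 0.11, adjusted p = 0.00158). Manf had 238 and 181 CPM in Aldh1a1-high cells, against 303 and 295 CPM in Cyp11b1-high cells (-0.46 ± 0.11, adjusted p = 0.00773). Hsp90b1 had 721 and 675 CPM in Aldh1a1-high cells, against 849 and 1000.1 CPM in Cyp11b1-high cells (-0.34 ± 0.10, adjusted p = 0.0277). None of the 3 overlapped between the groups, and the call of Hsp90b1 was lost under 3 of 10 alternative settings. Calr (0.20 ± 0.09, adjusted p = 0.172) and Hspa5 (-0.14 ± 0.08, adjusted p = 0.32) did not pass the test. Libraries 1 and 2 differed in what this group held, since the zona glomerulosa marker Wnt4 was at 438 CPM in library 1 and 34.3 CPM in library 2.

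Of the 11 ER members, 6 hold the ER stress response element in a promoter window. The members were listed as chaperone and UPR genes, so an element bound by a UPR factor is not independent of that choice. The ER stress response element, CCAAT and CCACG with 9 bases between, is bound by the transcription factors NF-Y and ATF6, and both strands of the RefSeq windows were searched for it. It was found in 0.119% of 32851 windows (0.137% of 27025 genes) and in 6 of the 25 members with a window, all of them ER members. The windows of Hspa5 and Calr, the genes with the smallest adjusted p among the ER members, are shown with the element in capitals. In Hspa5 (chr2:34771840-34772139, plus strand) the capitals also mark TGACGTG, the core of the unfolded protein response element, which occurred in 2.01% of windows and in no other member. In Calr (chr8:84846882-84847181, minus strand) the element lies on the opposite strand and is seen as its reverse complement.
Hspa5: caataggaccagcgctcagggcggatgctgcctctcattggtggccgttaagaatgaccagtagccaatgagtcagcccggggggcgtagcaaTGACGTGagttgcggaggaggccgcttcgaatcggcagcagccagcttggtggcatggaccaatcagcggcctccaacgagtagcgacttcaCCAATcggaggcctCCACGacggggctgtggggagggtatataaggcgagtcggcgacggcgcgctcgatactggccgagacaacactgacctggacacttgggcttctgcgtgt
Calr: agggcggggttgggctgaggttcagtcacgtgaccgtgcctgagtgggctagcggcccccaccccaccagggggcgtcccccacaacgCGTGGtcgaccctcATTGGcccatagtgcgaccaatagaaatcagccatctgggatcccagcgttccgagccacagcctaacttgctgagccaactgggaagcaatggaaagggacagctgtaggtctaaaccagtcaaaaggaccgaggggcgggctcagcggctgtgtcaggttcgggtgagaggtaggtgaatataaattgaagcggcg
Read along their own strand, the elements differ only in their spacer, which is in lower case in the lines that follow, and Hsp90b1 has a pair of them.
Hspa5 element: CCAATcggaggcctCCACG
Calr element: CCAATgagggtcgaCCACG
Hsp90b1 element upstream: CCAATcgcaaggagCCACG
Hsp90b1 element downstream: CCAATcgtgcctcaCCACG
Pdia6 element: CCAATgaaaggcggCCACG
Dnajc3 element: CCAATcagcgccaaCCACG
Creld2 element: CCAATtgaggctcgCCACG
Of these 6 genes Hspa5, Calr and Dnajc3 were called higher in Cyp11b1-high over Cyp11b2-high cells, and Hsp90b1, Pdia6 and Creld2 were not. Pdia3, Pdia4 and Sdf2l1 were called too and do not hold these letters in their windows. No match was found for Manf either, which was called as well. The CCAAT letters alone, which are part of the element, occurred in 37.4% of windows. The CEBP-ATF response element TGATGNAAT, searched on both strands, occurred in 0.965% of windows and in no member's window. A match is a description of letters and not a measured binding site.

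The calls among the 11 cytosolic members showed no shared direction. In Cyp11b1-high over Cyp11b2-high cells 2 of 11 were higher and 2 lower, against 15.8% and 18.1% of all genes. Their median log2 difference was -0.11. Of the 31 further cytosolic genes described below, 3 were higher and 14 lower in the same comparison. Hspb1, a small heat shock protein gene, had 561 and 593 CPM in Cyp11b1-high cells, against 431 and 368 CPM in Cyp11b2-high cells, with no overlap (0.44 ± 0.10, adjusted p = 0.000977). Hspa1a, a stress-inducible Hsp70 gene, had 24.8 and 73.2 CPM in Cyp11b1-high cells, against 18.0 and 47.2 CPM in Cyp11b2-high cells, which overlapped (0.48 ± 0.13, adjusted p = 0.00754). Hspa4, an exchange factor gene of the Hsp70 cycle, had 239 and 303 CPM in Cyp11b1-high cells, against 278 and 421 CPM in Cyp11b2-high cells (-0.43 ± 0.06, adjusted p = 2.03e-05). Bag3, a cochaperone gene of selective autophagy, had 66.9 and 76.0 CPM in Cyp11b1-high cells, against 70.3 and 91.6 CPM in Cyp11b2-high cells (-0.25 ± 0.08, adjusted p = 0.0238). Hspa4 and Bag3 overlapped between the groups, and alternative settings ended the call of Bag3 in 5 of 10 cases and that of Hspa1a in 3.

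Of the 11 cytosolic members, 5 were called in none of the comparisons. The share of all genes called in none is not given. Hsp90ab1, a constitutive Hsp90 gene, ranged from 1726 to 1975 CPM over the 6 groups in library 1 and from 2039.7 to 2439 CPM in library 2. Hspa8, the constitutive Hsp70 gene, ranged from 1186 to 1282 CPM in library 1 and from 1647 to 1980.0 CPM in library 2. Hsp90ab1, Hspa8, Hsp90aa1, Dnaja1 and Dnajb1 are the 5 that did not pass the test. Hspb1 and Bag3 marked the cortical cells off from leukocytes, which held 2.23 and 2.93 CPM of Hspb1 and 6.70 and 5.87 CPM of Bag3. In the cortical groups Hspb1 had 352 to 593 CPM and Bag3 had 65.1 to 99.5 CPM, and this difference was not tested.

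In the remaining comparisons few cytosolic members were called, against 7.75% to 27.4% of all genes. Hsph1, an exchange factor gene of the Hsp110 family, was the 1 member higher in Aldh1a1-high cells, with 92.8 and 193 CPM, against 64.6 and 135 CPM in Cyp11b1-high cells (0.58 ± 0.14, adjusted p = 0.00716). These values overlapped, and the call was lost under 2 of 10 alternative settings. In cells low in both Hsph1 had 56.3 and 126 CPM, against 63.9 and 140.4 CPM in Cyp11b2-high cells (-0.22 ± 0.07, adjusted p = 0.0314). Bag3 was lower there too (-0.22 ± 0.07, adjusted p = 0.0399), and the calls of Hsph1 and Bag3 were lost under 4 and 5 of 10 settings. Co-expressing cells had 333 and 458 CPM of Hspa4, against 239 and 303 CPM in Cyp11b1-high cells (0.53 ± 0.10, adjusted p = 0.00138). For Hspb1 they had 473 and 352 CPM, against 561 and 593 CPM in Cyp11b1-high cells (-0.44 ± 0.12, adjusted p = 0.0216). Neither gene overlapped in that comparison. Over cells low in both, Cyp11b1-high cells were higher in Hspa1a (0.49 ± 0.11, adjusted p = 0.00226) and Hspa1b (0.31 ± 0.10, adjusted p = 0.0196) and lower in Hspa4 (-0.26 ± 0.06, adjusted p = 0.00278). The calls of Hspa1a and Hspa1b there were lost under 2 and 4 of 10 settings.

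Hspa1a and Hspa1b are near-identical neighbours on chromosome 17, with 9951 bases between their models, and 296 of 300 bases of their promoter windows are the same. Reads that fit both genes may have been lost or shared in the authors' counting, so the split between them is uncertain.

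Of the 5 UPR regulators, 1 was called in each comparison, Ddit3 in 3 of them and Xbp1 in the other 2. Ddit3, which encodes the stress transcription factor CHOP, had 114 and 101 CPM in Cyp11b1-high cells, against 87.3 and 75.2 CPM in Cyp11b2-high cells, with no overlap (0.31 ± 0.09, adjusted p = 0.0126). In Aldh1a1-high cells it had 73.5 and 58.7 CPM, against 114 and 101 CPM in Cyp11b1-high cells (-0.66 ± 0.21, adjusted p = 0.0347). Co-expressing cells had 53.6 and 96.2 CPM of Ddit3, against 114 and 101 CPM in Cyp11b1-high cells (-0.76 ± 0.19, adjusted p = 0.016), and nearly all of that difference lay in library 1 (-1.09 and -0.08). The first of these calls was lost under 2 of 10 alternative settings and the second under 4 of 10.

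Xbp1 encodes the transcription factor of the IRE1 arm of the UPR, and it had 61.0 and 86.9 CPM in Cyp11b1-high cells, against 47.5 and 61.8 CPM in cells low in both (0.37 ± 0.08, adjusted p = 0.00132). It had 47.5 and 61.8 CPM in cells low in both, against 54.1 and 76.1 CPM in Cyp11b2-high cells (-0.28 ± 0.08, adjusted p = 0.022). Both comparisons of Xbp1 overlapped, and their calls were lost under 2 and 5 of 10 settings. UMI totals of Xbp1 do not separate the spliced form that makes the active factor. Atf4, the transcription factor gene of the integrated stress response, had 78.7 to 103 CPM in every cortical group and library and passed the test in no comparison. Herpud1, a gene of ER-associated degradation, ranged from 67.9 to 98.0 CPM and passed in none either. Trib3, a target gene of CHOP, was near the limit of detection, with 6 and 9 UMIs in Cyp11b1-high cells, against 2 and 2 UMIs in Cyp11b2-high cells. It passed in no comparison, and Aldh1a1-high cells of library 2 held 0 UMIs of it among 408653, which allows up to 7.34 CPM.

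Between the libraries the ratio was largest for Hspa1b, Hsph1 and Hspa1a among the members with at least 20 CPM. In cells low in both, Hspa1b had 84.3 CPM in library 2 and 35.4 CPM in library 1, a ratio of 2.38. Hsph1 had 126 CPM in library 2 and 56.3 CPM in library 1 (2.23), and Hspa1a had 44.5 CPM in library 2 and 20.2 CPM in library 1 (2.21). These 3 of the 29 members with at least 20 CPM were at least 2-fold higher in library 2, against 2.09% of 6993 such genes. Other cytosolic members that stress can induce did not stand apart, with log2 ratios of 0.21 for Dnajb1, 0.23 for Bag3 and -0.07 for Hspb1. None of the 29 was 2-fold lower, against 0.443% of such genes. The median log2 ratio was 0.25 over the members and 0.21 over all such genes. Hspe1 ran the opposite way, with 1773 CPM in library 2 and 2429.8 CPM in library 1, a ratio of 0.73, while its neighbour Hspd1 had a ratio of 1.15. With 1 library on each side there is no test. In the same cells the 12 early response genes summed to 1553 CPM in library 2 and 1057 CPM in library 1. Among them Fos was at 60.0 CPM in library 2 and 14.7 CPM in library 1. Others hardly differed, with Nr4a1 at 110 and 111 CPM and Ier2 at 17.5 and 17.3 CPM in the same order.

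**Figure D5:**
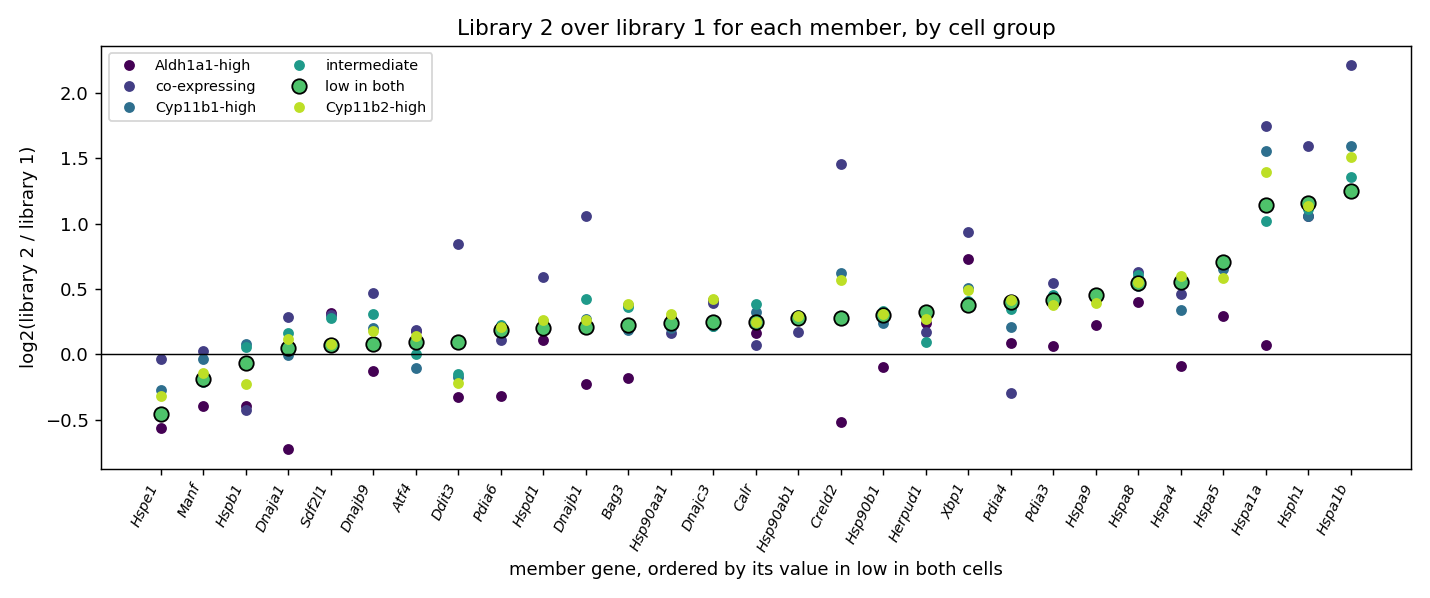
Log2 ratio of library 2 over library 1 (y axis) for 29 members (x axis, ordered by the ratio in cells low in both, large outlined points), with 1 point per cell group; Trib3 is left out for its few UMIs. Hspa1a, Hsph1 and Hspa1b lie at 1.14 to 1.25 in cells low in both, and Hspe1 lies below 0 in all 6 groups.

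Other genes of the same pathways were called in both directions in Cyp11b1-high over Cyp11b2-high cells. Of 14 further mitochondrial proteostasis genes 3 were higher and 2 lower there, against 15.8% and 18.1% of all genes. Atf5, a transcription factor gene of the mitochondrial stress response, was higher (0.99 ± 0.12, adjusted p = 1.1e-06), as was the protease subunit gene Clpx (0.21 ± 0.06, adjusted p = 0.0149). Timm44 (-0.24 ± 0.08, adjusted p = 0.023) and Grpel1 (-0.17 ± 0.06, adjusted p = 0.0244), partners of the import motor, were lower. In cells low in both over Cyp11b2-high cells the 1 such gene called was the protease gene Lonp1 (-0.44 ± 0.05, adjusted p = 6.47e-06). Of all genes, 12.9% were called in that comparison. In Aldh1a1-high over Cyp11b1-high cells, where 14.5% of all genes were called, Timm44 and Lonp1 were lower and 12 of the 14 did not pass the test. In Cyp11b1-high cells over cells low in both, 4 of the 14 were higher and 2 lower, against 12.8% and 14.6% of all genes.

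Of 20 further ER folding and degradation genes 3 were higher and 5 lower in Cyp11b1-high over Cyp11b2-high cells, against 15.8% and 18.1% of all genes. Derl1 (0.45 ± 0.08, adjusted p = 0.000105), P4hb (0.33 ± 0.07, adjusted p = 0.000395) and Ssr1 (0.26 ± 0.08, adjusted p = 0.0192) were higher. Ero1l, the oxidase gene that drives disulfide formation, was lower (-1.03 ± 0.10, adjusted p = 2.2e-08), as were Sel1l (-0.36 ± 0.07, adjusted p = 0.000539) and the BiP exchange factor gene Hyou1 (-0.35 ± 0.11, adjusted p = 0.0156). In cells low in both over Cyp11b2-high cells 5 of the 20 were called, each of them lower, against 7.13% of all genes called lower. Among them were Ero1l at -0.51 ± 0.08, Sel1l at -0.40 ± 0.06 and Hyou1 at -0.37 ± 0.09. In Cyp11b1-high cells over cells low in both, 8 of the 20 were higher and 1 lower, against 12.8% and 14.6% of all genes. The median log2 difference of the 20 there was 0.23. Of 19 further UPR sensor and ATF4 target genes tested, 7 were higher and 3 lower in Cyp11b1-high over Cyp11b2-high cells, against the same 15.8% and 18.1%. Ddit4 (0.65 ± 0.12, adjusted p = 0.000264) and Creb3 (0.34 ± 0.09, adjusted p = 0.00721) were among the higher, and Ern1, the gene of the IRE1 sensor, was lower (-0.33 ± 0.07, adjusted p = 0.000672). In Aldh1a1-high over Cyp11b1-high cells Atf6 was higher (0.96 ± 0.18, adjusted p = 0.000523) and Psat1, an ATF4 target gene of serine synthesis, lower (-1.48 ± 0.31, adjusted p = 0.00166). In Cyp11b1-high cells over cells low in both, 7 of the 19 were higher, against 12.8% of all genes, and 12 did not pass. Their median log2 difference there was 0.26.

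Of 31 further cytosolic chaperone and cochaperone genes tested, 3 were higher and 14 lower in Cyp11b1-high over Cyp11b2-high cells, against 15.8% and 18.1% of all genes. Their median log2 difference was -0.13. Hspb6, a small heat shock protein gene, was lower (-1.02 ± 0.08, adjusted p = 8.87e-10), as were Hspa2 (-0.59 ± 0.15, adjusted p = 0.00343) and Hspa4l (-0.53 ± 0.08, adjusted p = 1.1e-05), and Fkbp5, a glucocorticoid-induced cochaperone gene, was higher (0.44 ± 0.09, adjusted p = 0.000922). In Aldh1a1-high over Cyp11b1-high cells 4 were higher and 3 lower, against 7.75% and 6.73% of all genes. Hspb8, a further small heat shock protein gene, stood out there with 54.3 and 61.2 CPM in Aldh1a1-high cells, against 4.65 and 5.67 CPM in Cyp11b1-high cells (3.52 ± 0.35, adjusted p = 1.95e-07). Fkbp5 was higher as well (1.00 ± 0.16, adjusted p = 9.64e-05). In Cyp11b1-high cells over cells low in both, 4 of the 31 were higher and 7 lower, against 12.8% and 14.6% of all genes.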

How the data were processed

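Single-cell RNA was measured in 2 libraries of 1 group of samples. Raw UMI counts per gene and cell barcode were deposited by the authors, made with Cell Ranger 3.1.0 per the file headers, on mm10 per the submitters' processing notes, from version 3.1 kits. The method of cell calling is not stated there. The 30 members and all other gene lists were chosen with earlier results of these data known.

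Barcodes under 1000 UMIs, under 500 genes or over 30% mitochondrial UMIs were left out. The cells with the highest scrublet scores (scanpy 1.11.5) were then removed as doublets, 203 in library 1 and 42 in library 2. These numbers were set by an assumed rate of 0.8% per 1000 barcodes and are not a count of doublets detected. Cells were grouped by the CPM limits given above, and counts were summed per group and library. The 12 sums of the 6 cortical groups entered edgeR 4.0.16 (R 4.3.3, TMM, filterByExpr, quasi-likelihood test, terms for group and library), which tested 11786 genes with 5 residual degrees of freedom and Benjamini-Hochberg adjustment at 0.05. The spread of each gene was moderated across genes, with a median of 16.2 prior degrees of freedom. CPM levels are plain shares of the sums and are not compared between genes. Star and 5 leukocyte genes chose the cortical cells, and Aldh1a1, Cyp11b1 and Cyp11b2 divided them; none is a member, and their differences are no findings. Poisson intervals (95%) and the limit that a count of 0 allows (3 UMIs) cover counting error only.

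Every cell group comes from the same 2 libraries, so the library number pairs the sums. Over the 15 pairs of groups the correlation of their deviations between libraries, across genes, was 0.101 to 0.752. On simulated data for Cyp11b1-high over Cyp11b2-high cells (11474 genes), 55 of 96 genes changed by 0.5 and 86 of 97 changed by 1 on the log2 scale were called in the right direction, with 7 false calls. The simulated sums held no library effect, no group differences beyond the changed genes and the same spread for every gene. These counts therefore do not give the error rate of the real calls. DESeq2 1.42.0, RLE factors, no low-count filter, no library term, thinning to 5000 UMIs, limits halved and doubled, doublets kept, at most 15% mitochondrial UMIs and each library alone were the alternatives. The comparisons of co-expressing with Cyp11b1-high cells and of Cyp11b1-high cells with cells low in both, and the alternative without haemoglobin-positive cells, were chosen after seeing the data. All 30 members are named; of each other list up to 3 genes per direction and comparison are named by size, with at least 20 CPM in 1 group and the same sign in both libraries. The listed gene Cct6a was not analysed here, and Slc7a11 was under the filter.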

Additional observations from a re-analysis of the deposited data

How the results depend on the processing

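Sums of the same library are paired, and the calls rest on that pairing: without the library term (no replicate block) 0 members were called in any comparison, and the genes called fell to 846 in Cyp11b1-high over Cyp11b2-high cells (3997 with it), 531 in Aldh1a1-high over Cyp11b1-high cells (1707 with it), 11 in cells low in both over Cyp11b2-high cells (1519 with it), 105 in co-expressing over Cyp11b1-high cells (914 with it) and 370 in Cyp11b1-high cells over cells low in both (3230 with it). The smallest adjusted p of a member was then 0.0612, for Hspd1 in Cyp11b1-high over Cyp11b2-high cells. With cells thinned to 5000 UMIs, which lowers the counts by construction, 2206, 737, 661, 590 and 1599 genes were called in the same order of comparisons. Thinning and RLE size factors each left 5 members called in Aldh1a1-high over Cyp11b1-high cells, against 8 in the reported fit and 7 to 11 under the other settings with a library term. DESeq2 called 743 genes in cells low in both over Cyp11b2-high cells and 1996 in Cyp11b1-high cells over cells low in both, and halved group limits gave 1888 genes in co-expressing over Cyp11b1-high cells. The cause of these shifts was not tested. Under DESeq2 67.9% of calls were higher in Aldh1a1-high over Cyp11b1-high cells, against 53.5% by edgeR, and 65.1% against 53.7% in co-expressing over Cyp11b1-high cells. Of 51 member calls, 30 were lost only without the library term and 21 under other settings too, and 0 changed sign in either library alone, where there is no test. Doubled limits left too few co-expressing cells for a value.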

Other observations

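Beside the mitochondrial chaperones, the genes named here were also lower in cells low in both than in Cyp11b2-high cells. They were chosen after their values were seen and stand for no list. Fdx1, which encodes the electron donor of the mitochondrial P450 enzymes, had 3055 and 2298 CPM in cells low in both, against 6517 and 7765 CPM in Cyp11b2-high cells (log2 difference -1.46, edgeR adjusted p = 8.14e-06). The cholesterol synthesis genes Idi1 (-1.28) and Cyp51 (-1.26) and Scarb1 (-1.06), which encodes a receptor for high-density lipoprotein, were lower as well, with Scarb1 at 203 and 231 CPM in cells low in both, against 363.9 and 532 CPM in Cyp11b2-high cells. Dkk3 (-1.38) and Procr (-1.51) were lower too.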
